A study of Mus musculus with 12 samples.

Results

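The proteins of the cytosolic ribosome were followed through their mRNAs in J774A.1 cells, a macrophage-like line derived from BALB/c mice. Genes were taken by name, as every entry of the expression table whose symbol has the form of a ribosomal protein gene (Rpl or Rps with a number, Rplp0 to Rplp2 and Rpsa). That pattern matched 78 of the 11762 genes in the table. One of these entries, named Rpl24, carried the identifier and the position of Zbtb11, a zinc finger gene next to Rpl24, and was set apart. The other 77 are described here, 46 of the large and 31 of the small subunit, and all 77 passed the filter on low values.

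RNA sequencing covered 12 libraries in 4 groups of 3 biological replicates. Control cells were mock-treated. The other cells received microparticles (MP), lipopolysaccharide (LPS, the outer membrane component of Gram-negative bacteria that Toll-like receptor 4 senses), or LPS and MP together (LPS+MP). All groups are 1 cell line, and its labels give neither the composition nor the dose of the microparticles, nor a treatment time. Values are in CPM, read counts scaled to a common library total, so each is a share of its library: less ribosomal protein mRNA and more of other mRNA cannot be told apart, and neither can a change in each cell and a change in the mixture of cells.

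Each ribosome carries a copy of nearly every ribosomal protein, in a small subunit that reads the mRNA and a large subunit that forms the peptide bond. The proteins are made in matched amounts, and their mRNAs are among the most abundant of a growing cell. Many of these mRNAs begin with a cytosine followed by a run of pyrimidines, the terminal oligopyrimidine (TOP) motif, through which mTORC1 and the RNA-binding protein Larp1 control their translation and stability. In macrophages LPS starts a strong transcriptional programme of cytokines and other defence genes.

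The start of the mRNA is shown for 8 genes, chosen after their letters were seen to show members that begin with a pyrimidine run and, for comparison, members described below that do not. Each sequence runs from 20 bases before the RefSeq start site to the first 10 transcribed bases (GRCm38.p6), and the capitals mark the unbroken run of pyrimidines that begins at the annotated start site. The first 5 begin with C and at least 4 further pyrimidines, Rpl4 and Rpl12 begin with a purine, and Rpl37a has a run of 1 base. In Rpl12 a C with 4 further pyrimidines lies within 5 bases of the annotated start.
Rps18, chr17:33955656-33955685, minus strand: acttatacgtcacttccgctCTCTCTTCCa
Rps10, chr17:27635235-27635264, minus strand: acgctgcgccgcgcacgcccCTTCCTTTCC
Rpl35, chr2:39005122-39005151, minus strand: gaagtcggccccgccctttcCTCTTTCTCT
Rpl38, chr11:114668560-114668589, plus strand: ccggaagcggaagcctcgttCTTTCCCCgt
Rps6, chr4:86857358-86857387, minus strand: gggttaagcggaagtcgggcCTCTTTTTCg
Rpl4, chr9:64173367-64173396, plus strand: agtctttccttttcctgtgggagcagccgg
Rpl12, chr2:32961692-32961721, plus strand: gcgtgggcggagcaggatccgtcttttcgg
Rpl37a, chr1:72711240-72711269, plus strand: gtcacttccgctcgccggtcTaaaaccgcg

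RefSeq promoters were matched for 57 of the 77 genes, with 69 start sites among them. A C at the start site followed by at least 4 pyrimidines stood at 13 of these 69 sites (18.8%), against 2.51% of all 32851 mouse promoters in the same reference. With the C allowed up to 5 bases to either side, the shares were 43.5% and 18.3%. The strand of the gene was read, and these are annotated starts, not measured ones, so a missing match says only that the letters are not at that position. The 13 genes with the exact start (Rpl14, Rpl15, Rpl28, Rpl35, Rpl35a, Rpl38, Rplp2, Rps10, Rps15a, Rps18, Rps21, Rps27 and Rps6) and the 44 without it had close median log2 fold changes: -0.51 and -0.50 with LPS, 0.29 and 0.27 with LPS+MP against LPS, and 0.00 and 0.04 with MP against control.

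Column sums lay between 998867 and 999273 CPM, and no library was short of values. LPS replicate 2 stood apart: in it 339 genes lay more than 1 log2 unit from the average of its companion replicates, and in each of the other 11 libraries 1 to 29 genes did. Of 8 macrophage markers 7 were in the table, at a summed 4657 to 7025 CPM per library, and the summed level of each of 7 marker lists of other cell types was at most 11.48 CPM. Mitochondrially encoded mRNAs took 5.59% ± 0.33 (SD, n = 3) of control libraries, 7.15% ± 0.55 with MP, 5.86% ± 1.02 with LPS and 4.14% ± 0.38 with LPS+MP, and their part in the results below was not tested.

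The 77 genes together took 4.42%, 3.99% and 4.28% of the 3 control libraries and 4.12%, 4.53% and 4.59% of the MP libraries. They took 2.88%, 2.74% and 3.28% of the LPS libraries and 3.55%, 3.58% and 3.49% of the LPS+MP libraries. Control and MP libraries overlapped, all 3 LPS libraries were below all others, and the LPS+MP libraries lay between. The group means were 4.23% ± 0.22, 4.42% ± 0.26, 2.97% ± 0.28 and 3.54% ± 0.04 (SD, n = 3) for control, MP, LPS and LPS+MP, and the LPS mean was 3.08% without replicate 2. With mitochondrially encoded genes left out of the library sum, the means were 4.48%, 4.75%, 3.15% and 3.69%, in the same order.

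The summed large-subunit mRNA exceeded the summed small-subunit mRNA by a ratio of 1.71 ± 0.01 in control, 1.68 ± 0.01 with MP and 1.73 ± 0.02 with LPS+MP. With LPS the ratio was 1.79 ± 0.11. That wider value came from replicate 2, at 1.91, and without it the mean was 1.73.

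**Figure D1:**
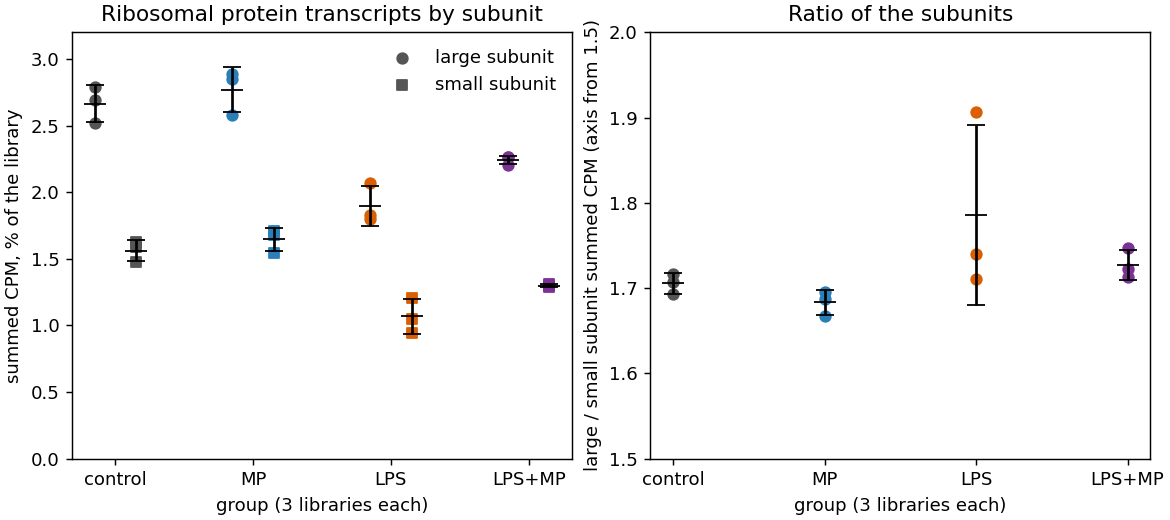
Left, summed CPM of the large-subunit (circles) and small-subunit (squares) genes in each library as a percentage of the library, with group mean and SD of 3 libraries; right, the ratio of the subunit sums, on an axis that starts at 1.5. The LPS libraries lie lowest and the LPS+MP libraries between LPS and control, and 1 LPS library, replicate 2, has a ratio of 1.91.

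LPS against control asked how the cells responded to the bacterial signal alone. Ribosomal protein mRNAs were lower across both subunits. At a limma adjusted p under 0.05, 69 of 77 genes fell and 0 rose, where 35.6% of all 11745 genes tested fell and 26.6% rose. The median log2 fold change was -0.51 over the 77 genes and -0.08 over all genes. Split by coding length (under 300, 300 to under 450, 450 to under 600, and 600 or more bases), the members had medians of -0.58, -0.45, -0.49 and -0.51. Other genes of these lengths had medians of -0.22, -0.20, -0.17 and -0.07. Of the large subunit 40 of 46 genes fell and of the small subunit 29 of 31. In 66 of the 77 every LPS library was below every control library, against 36.9% of all genes. No gene fell by more than 2-fold, the size the series set for a differentially expressed gene, which 8.05% of all genes did. Over the libraries left out in turn, 62 to 71 genes fell (69 without LPS replicate 2), and the median change ranged from -0.62 (replicate 3 of LPS left out) to -0.44 (replicate 2 left out). Leaving out LPS replicate 3 put 4 genes past the 2-fold limit, and leaving out LPS replicate 1 or control replicate 2 put 1 there.

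Rps15, a protein of the head of the small subunit, had the largest decrease. Its levels were 427.4, 388.9 and 426.1 CPM in control and 252.1, 152.5 and 276.6 CPM with LPS. The groups did not overlap, and replicate 2 was the lowest of the LPS libraries. The log2 fold change was -0.91 ± 0.16 (SE; limma adjusted p = 1.17e-04).

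Rps18, which also sits in the head, fell from 403.2, 282.8 and 389.4 CPM to 196.4, 177.7 and 224.3 CPM, a log2 fold change of -0.83 ± 0.13 (limma adjusted p = 6.96e-05). Its 3 LPS libraries were close to each other, and control replicate 2 was the lowest control. Rps16 changed by -0.85.

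Rpsa, which encodes a small-subunit protein also known as the laminin receptor, was the most abundant of the 77 in CPM. It was at 2080, 2028 and 2028 CPM in control and at 1206, 1177 and 1442 CPM with LPS, so the groups were far apart. Its log2 fold change was -0.69 ± 0.08 (limma adjusted p = 3.14e-06).

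Among large-subunit proteins near the catalytic centre and the exit tunnel, Rpl3 and Rpl4 fell. Rpl3, a protein that reaches toward the peptidyl transferase centre, was at 1228, 1152 and 1182 CPM in control and at 731.4, 874.9 and 905.7 CPM with LPS, a change of -0.51 ± 0.08. Rpl4, which lines the exit tunnel, was at 1655, 1643 and 1603 CPM in control and at 1127, 1338 and 1290 CPM with LPS, a change of -0.39 ± 0.08 (limma adjusted p = 5.42e-05 for Rpl3 and 3.71e-04 for Rpl4). LPS and control libraries did not overlap for either gene.

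Members known for a role outside the ribosome, for their modification, for a disease or for the form in which they are made fell too. Rpl5 (-0.44 ± 0.08) and Rpl11 (-0.76 ± 0.11), which bind the ubiquitin ligase Mdm2 when free of the ribosome, had limma adjusted p-values of 2.36e-04 and 2.18e-05. Rps6, the substrate of the S6 kinases, changed by -0.43 ± 0.09, and Rps19, the gene most often mutated in Diamond-Blackfan anaemia, by -0.58 ± 0.15 (limma adjusted p = 4.65e-04 and 0.0037). Rps27a, made as a fusion with ubiquitin, changed by -0.42 ± 0.10 (limma adjusted p = 0.0022).

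The stalk that recruits elongation factors is built from Rplp0, Rplp1 and Rplp2. Rplp0 fell from 859.5, 841.7 and 853.7 CPM to 627.3, 547.7 and 711.4 CPM (-0.45 ± 0.08, limma adjusted p = 2.19e-04). Rplp1 was at 865.5, 637.2 and 802.8 CPM in control and at 573.8, 922.5 and 618 CPM with LPS, where replicate 2 was above every control library. Its change was -0.15 ± 0.16 (limma adjusted p = 0.44), and without LPS replicate 2 it was -0.36 with an adjusted p of 0.0075. Rplp2 changed by -0.30 ± 0.11 (limma adjusted p = 0.031). The call of Rplp2 was lost without control replicate 1, control replicate 3 or LPS replicate 2, at adjusted p 0.076 to 0.135, after median-ratio scaling (0.086), without the variance trend (0.057) and with the 2 groups fitted alone (0.062).

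Rpl19 and 7 other members did not pass the test with LPS, namely Rpl34, Rpl36a, Rpl38, Rpl3l, Rplp1, Rps24 and Rps27. LPS replicate 2 was the highest LPS library for 5 of these (Rpl19, Rpl34, Rpl36a, Rplp1 and Rps24), and without it Rpl19 (-0.18), Rpl34 (-0.40), Rpl36a (-0.52), Rplp1 and Rps24 (-0.27) passed. Rpl38 was at 126.8, 80.96 and 138.6 CPM in control and at 90.42, 49.59 and 97.44 CPM with LPS. Its change of -0.56 ± 0.24 had a limma adjusted p of 0.058, and the controls spread over the range of 2 of the LPS libraries. It passed without control replicate 2, LPS replicate 1 or LPS replicate 3 (adjusted p = 0.014 to 0.035).

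**Figure D2:**
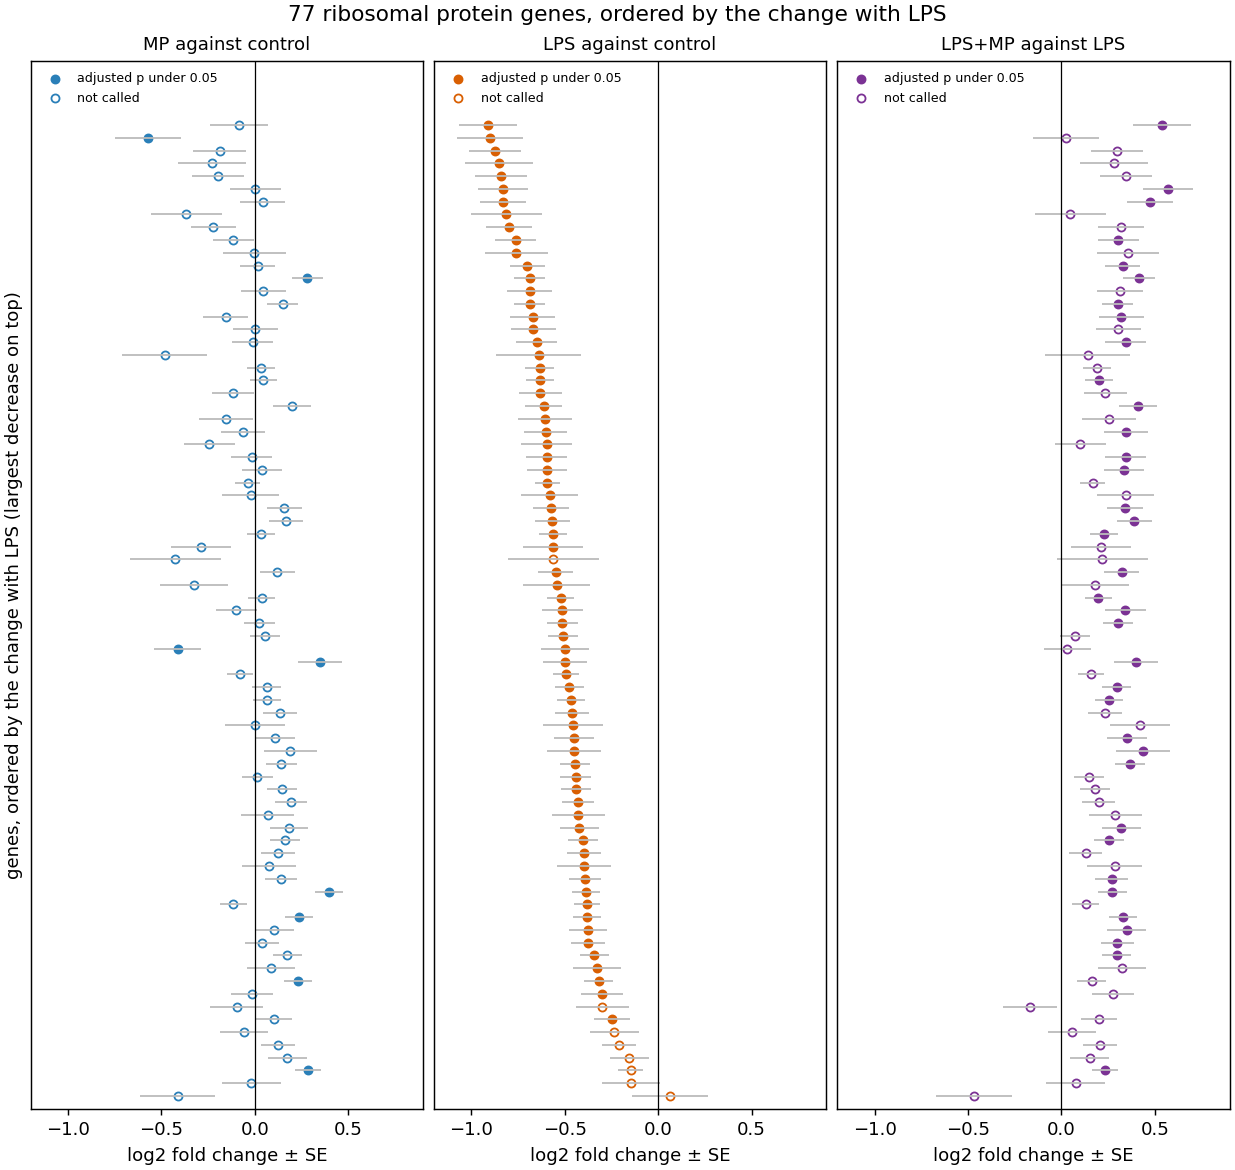
Log2 fold change with its SE for each of the 77 genes (1 line each) in 3 comparisons, ordered by the change with LPS; filled points have an adjusted p under 0.05. With LPS nearly all points lie left of 0, with LPS+MP against LPS 75 of 77 lie right of 0, and with MP against control 46 lie right and 31 left.

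LPS+MP against LPS asked what microparticles changed in cells that also received LPS. Ribosomal protein mRNAs were higher with both agents than with LPS alone. The LPS libraries are those of LPS against control, entered here with the opposite sign, so these rises are not independent of the falls with LPS. At a limma adjusted p under 0.05, 36 of 77 rose and 0 fell, where 13% of all genes rose and 22.2% fell. The median log2 fold change was 0.29 over the 77 genes and -0.05 over all genes, and 49 of the 77 had every LPS+MP library above every LPS library, against 17.4% of all genes. The 36 comprised 21 of 46 large-subunit and 15 of 31 small-subunit genes, and 0 rose by more than 2-fold, as 0.63% of all genes did. The count ranged from 18 to 55 over the libraries left out: 20 without LPS+MP replicate 1, 18 without LPS+MP replicate 2 and 55 once LPS replicate 3 was dropped. Dropping LPS replicate 2 left the count at 36, with 1 gene (Rpl3l) lower. It was 12 when the 2 compared groups were fitted alone and 22 after quantile normalization.

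Rps18 had the largest rise. It was at 196.4, 177.7 and 224.3 CPM with LPS and at 263.5, 301.8 and 324.1 CPM with LPS+MP, with no overlap, a log2 fold change of 0.57 ± 0.13 (limma adjusted p = 0.0043). The LPS+MP libraries reached into the range of control, 282.8 to 403.2 CPM.

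Rps15 was at 319.6, 321 and 318.4 CPM with LPS+MP, a change of 0.54 ± 0.16 against LPS (limma adjusted p = 0.015), and 0.27 without LPS replicate 2, the lowest LPS library. The call of Rps15 held with each library left out, and was lost when the 2 groups were fitted alone (adjusted p = 0.068). Rpl18 changed by 0.44 ± 0.14 (limma adjusted p = 0.028), which was 0.20 without LPS replicate 2, and its call was lost without any 1 of the LPS+MP libraries (adjusted p = 0.069 to 0.076), with the 2 groups fitted alone (0.105), after quantile normalization (0.0501) and without the variance trend (0.055). Rps20 changed by 0.42 ± 0.16 and did not pass (limma adjusted p = 0.052), but passed without LPS replicate 1 or 3 and after median-ratio scaling (adjusted p = 0.0089 to 0.037).

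Rpl12, a protein of the stalk base, was at 563, 642.6 and 683.1 CPM with LPS and at 784.7, 868.4 and 859.6 CPM with LPS+MP. The 0.41 ± 0.08 change (limma adjusted p = 0.0014) was 0.34 to 0.48 over the libraries left out. Rplp0 rose by 0.37 ± 0.08 (limma adjusted p = 0.0028) and Rpsa by 0.30 ± 0.08 (limma adjusted p = 0.011). The LPS+MP libraries stood above the LPS libraries for each of these 3 genes, and the call of Rpsa was lost when the 2 groups were fitted alone (adjusted p = 0.065).

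The changes nearest 0 were those of Rpl37a (0.02), Rpl39 (0.03), Rps21 (0.05), Rpl34 (0.06) and Rpl3 (0.07), none of which passed, and the lowest was that of Rpl3l (-0.47 ± 0.20), which did not pass either. Rpl36a was at 140.5, 258 and 184 CPM with LPS, where replicate 2 was high, and at 177.7, 165 and 160.1 CPM with LPS+MP, and its change of -0.17 turned to 0.06 without LPS replicate 2. Without that library Rpl37a, Rpl39 and Rps21 were at -0.23, -0.03 and -0.21, and Rpl3 turned to -0.02 without LPS replicate 1.

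In LPS+MP against control, fewer genes passed as lower than with LPS alone, a difference in counts that was not itself tested. At a limma adjusted p under 0.05, 40 of 77 genes fell and 0 rose, where 38.6% of all genes fell and 27.7% rose. The median log2 fold change was -0.26 over the 77 genes and -0.10 over all genes. In the 4 coding length classes, from short to long, the members had medians of -0.48, -0.18, -0.21 and -0.28. Other genes of these lengths had -0.18, -0.15, -0.11 and -0.10, so the 27 members of 300 to under 450 bases were close to their background. The group mean of LPS+MP lay between LPS and control for 73 of 77 genes, and LPS had the lowest of the 4 means for 74. The shares of all genes with these orders were not computed, and the 77 genes share their libraries. This comparison shares its control libraries with LPS against control and its LPS+MP libraries with LPS+MP against LPS. Those other comparisons share the LPS libraries with opposite sign, so a low LPS library enlarges both the fall and the rise. Of the 35 genes that fell with LPS and rose with LPS+MP against LPS, 16 still passed as lower than control with both agents, among them Rpsa (-0.39 ± 0.08), Rpl12 (-0.27 ± 0.08) and Rps15 (-0.37 ± 0.16). The other 19 did not pass, among them Rpl4 (-0.11 ± 0.08) and Rplp0 (-0.08 ± 0.08). The share of all genes with these joint calls was not computed, so the counts do not show whether the overlap is particular to ribosomal protein genes. Scaling by the median ratio, which put the median of all genes near 0, left 21 genes lower, 1 higher (Rpl19) and a median of -0.15. The count was 24 without control replicate 1, 26 without LPS+MP replicate 3 and 54 without LPS replicate 2.

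The lowest values against control were those of Rpl37a (-0.88 ± 0.18), Rps21 (-0.77 ± 0.19), Rps27l and Rps16 (-0.57 and -0.57). Rps16 lost its call without control replicate 1 (adjusted p = 0.054). Rpl12 lost its call without control replicate 1 or LPS+MP replicate 1 (adjusted p = 0.053 to 0.055), and Rps15 without any 1 control or LPS+MP library (adjusted p = 0.061 to 0.11). After median-ratio scaling Rpl12 and Rps15 did not pass either (adjusted p = 0.086 and 0.14). The highest values were 0.09 for Rpl19 and between -0.01 and 0 for Rps27, Rps23, Rps24 and Rpl18, none of which passed. The last 4 turned above 0 after median-ratio scaling.

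Against MP alone, cells with LPS+MP had 41 of 77 genes lower and 0 higher at a limma adjusted p under 0.05, where 36.6% of all genes were lower and 19% higher. The median was -0.28, against -0.14 over all genes, and after median-ratio scaling, with all genes near 0, it was -0.13 with 18 genes lower. Rpl12 had the lowest value. It was at 1181, 1260 and 1249 CPM with MP and, as above, between 784.7 and 868.4 CPM with LPS+MP, a log2 fold change of -0.55 ± 0.08 (limma adjusted p = 4.44e-05). Rpsa, Rpl4 and Rpl3 followed with -0.54, -0.51 and -0.49. Rpl38, Rpl3l, Rplp2, Rps29 and Rps20 had the highest values, 0.08, 0.01, -0.01, -0.02 and -0.03, and did not pass; Rplp2, Rps29 and Rps20 turned above 0 after median-ratio scaling.

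**Figure D3:**
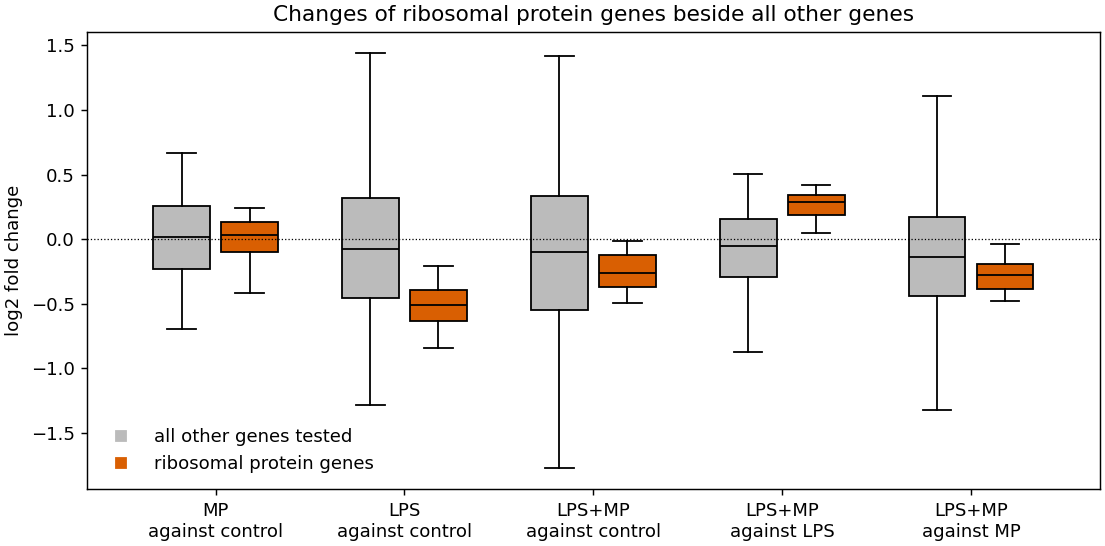
Log2 fold changes of the 77 ribosomal protein genes (orange) and of all other genes tested (grey) in 5 comparisons; boxes span the quartiles with the median as a line, and whiskers reach from percentile 5 to percentile 95. The ribosomal protein genes form narrow boxes with medians of 0.03, -0.51, -0.26, 0.29 and -0.28, and the other genes form wide ones.

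MP against control asked what microparticles did without LPS. The ribosomal protein genes did not move as one: 6 of 77 rose and 2 fell at a limma adjusted p under 0.05, where 20.6% of all genes rose and 18.3% fell. The median log2 fold change was 0.03, beside 0.02 over all genes, and its range was -0.57 to 0.40. No library overlap was seen for 17 genes in the upward and 8 in the downward direction, against 30.9% and 28.1% of all genes. The number called depended on the estimate of the spread, which LPS replicate 2 enters: without that library 14 rose and 10 fell, and with the 2 groups fitted alone 17 rose and 9 fell. Counts were also lower without control replicate 2 (3 rose) or MP replicate 2 (2 rose), 0 fell without control replicate 1, control replicate 3 or MP replicate 1, and 11 rose after quantile normalization.

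Rpl4 had the largest rise, from 1655, 1643 and 1603 CPM to 2191, 2144 and 2118 CPM. Both groups were tight and far apart, and the log2 fold change was 0.40 ± 0.08 (limma adjusted p = 7.41e-04). Rpl19, a large-subunit protein, was at 924.1, 862.1 and 887 CPM in control and at 1069, 1128 and 1061 CPM with MP, a change of 0.29 ± 0.07 (limma adjusted p = 0.00395). The calls of these 2 genes held with each library left out.

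Rps12, a protein of the small-subunit beak, was at 407.2, 449 and 421.4 CPM in control and at 532.7, 547.3 and 546.5 CPM with MP, again without overlap. Its change of 0.35 ± 0.12 (limma adjusted p = 0.029) lost the call without control replicate 1 or 3 or any 1 MP library, at adjusted p 0.062 to 0.096, and without the variance trend (0.057). Rpl12 (0.28 ± 0.08), Rps15a (0.24 ± 0.08) and Rpl26 (0.23 ± 0.08) also rose. Their limma adjusted p-values were 0.016, 0.021 and 0.028. Each of the 3 calls was lost without some libraries: Rpl12 without control replicate 2 or MP replicate 2 (0.061 to 0.082), Rps15a without these or control replicate 1 (0.058 to 0.083), and Rpl26 without any 1 control library or MP replicate 1 or 2 (0.051 to 0.088), after median-ratio scaling (0.058) and without the variance trend (0.053).

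Rpl37a, a small zinc-binding protein of the large subunit, fell. It was at 433.1, 328.3 and 429.7 CPM in control and at 223.2, 276.6 and 299.2 CPM with MP, a log2 fold change of -0.57 ± 0.18 (limma adjusted p = 0.018). Rpl39, which lies in the exit tunnel, was at 140.2, 111.8 and 153.1 CPM in control and at 83.68, 106.1 and 113.5 CPM with MP, where MP replicate 3 was above control replicate 2. Its change was -0.41 ± 0.13 (limma adjusted p = 0.017). Both calls were lost without control replicate 1, control replicate 3 or MP replicate 1, at adjusted p 0.074 to 0.095 for Rpl37a and 0.066 to 0.10 for Rpl39. Rps29 (-0.48) and Rpl38 (-0.43) had lower values than Rpl39 but did not pass in the main fit. They passed without LPS replicate 2 (limma adjusted p = 0.020 and 0.034) and with the 2 groups fitted alone (0.029 and 0.049). Rps29 also passed without control replicate 2 (0.025).

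Many of the genes with the lowest values after MP encode very small proteins, a property noticed in these values and so given without a test. Rpl3l (-0.41 ± 0.20), the fourth lowest and near the filter of 1 CPM, is an exception with 1221 coding bases. Under 300 coding bases were 10 genes: Rpl37, Rpl37a, Rpl38, Rpl39, Rpl41, Rps21, Rps27, Rps27l, Rps28 and Rps29. Their median change with MP was -0.35, with 9 of 10 below 0, while the 27 genes of 300 to under 450 bases had a median of 0.00, the 18 of 450 to under 600 bases 0.07 and the 22 of 600 or more bases 0.05. The genes next to the border were Rpl37 (291 bases, -0.24 ± 0.14) inside and Rpl36 (315 bases, -0.16) outside. Other genes of the table with under 300 coding bases, 230 in number, had a median of -0.11, beside 0.02 for other genes of 600 or more bases.

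As a share of the summed CPM of the 77 genes, these 10 took 4.03%, 3.54% and 4.30% in control and 2.67%, 2.95% and 3.13% with MP, without overlap. They took 3.93%, 2.77% and 3.93% with LPS and 3.53%, 2.87% and 3.13% with LPS+MP, with LPS replicate 2 the lowest of its group. Across the 77 genes, which share their libraries, Spearman's rho between the change with MP and length was 0.40 for coding length and 0.33 for transcript length. These were among 21 such relations computed, over 4 properties and 5 comparisons and once for the level; with LPS the values were 0.08 and 0.12, and with LPS+MP against MP, which shares the MP libraries, they were -0.39 and -0.25. The part of read length, fragment selection and RNA quality in this pattern was not tested.

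**Figure D4:**
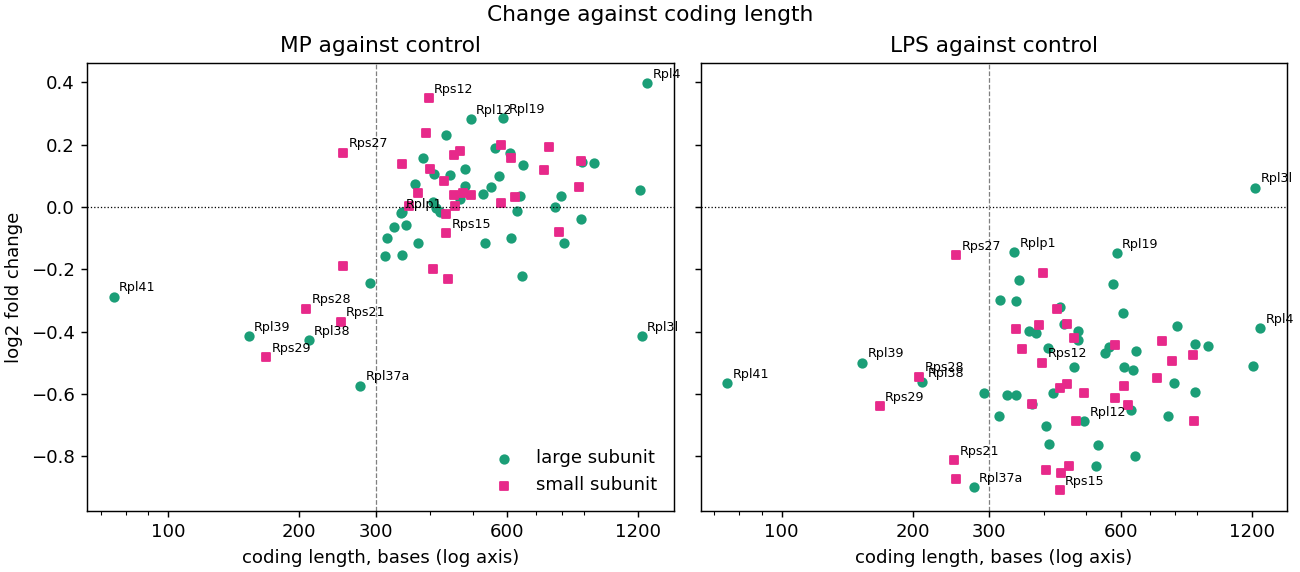
Log2 fold change of each of the 77 genes with MP (left) and with LPS (right) against coding length in bases, on a log axis, with 300 bases as a dashed line; green circles are large-subunit and pink squares small-subunit genes. Left of the line 9 of 10 genes lie below 0 with MP, and with LPS 76 of all 77 genes lie below 0.

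The interaction asked whether the effect of MP in LPS-treated cells differed from that in untreated cells. It was above 0 for 71 of 77 genes, with a median of 0.24 beside -0.08 over all genes, and 2 of 77 genes passed as higher and 0 as lower, where 6.45% of all genes were higher and 15.5% lower. The 2 genes were Rps18 and Rpl10a. The change of Rps18 with MP was 0.00 ± 0.13 without LPS and 0.57 ± 0.13 with LPS, an interaction of 0.57 ± 0.19 (limma adjusted p = 0.045). Rpl10a, a large-subunit protein, was at 722.4, 682.6 and 748.2 CPM in control, 548.6, 651.2 and 650.1 CPM with MP, 451.6, 318.4 and 486.5 CPM with LPS and 505.2, 516.1 and 521 CPM with LPS+MP. Its changes with MP were -0.22 ± 0.12 without and 0.32 ± 0.12 with LPS, neither past the threshold alone, and the interaction was 0.54 ± 0.17 (limma adjusted p = 0.035). In cells without LPS the change was past the threshold when LPS replicate 2 was left out (adjusted p = 0.0074) and with the 2 groups fitted alone (0.014). In LPS-treated cells it was past it without LPS replicate 1 or 3 and after median-ratio scaling (adjusted p = 0.011 to 0.033). Both interaction calls were lost with 7 of the 12 libraries left out in turn, at adjusted p 0.054 to 0.12 for Rps18 and 0.051 to 0.098 for Rpl10a. The number of genes called ranged from 0 to 26, 26 without LPS replicate 3, 8 without LPS replicate 2 and 0 without control replicate 1 or 3, MP replicate 1 or LPS+MP replicate 2 or 3. It was 16 after median-ratio scaling, 5 with a replicate block and 0 after quantile normalization. Rpl38, Rps15, Rps29 and Rpl37a had larger values (0.64, 0.62, 0.62 and 0.60) with larger errors (0.22 to 0.35) and did not pass. Rps15 did pass without any 1 LPS library (adjusted p = 0.0097 to 0.028, and 0.36 in size without replicate 2) and after median-ratio scaling (0.032), and Rpl37a without LPS replicate 3 (0.035). Rpl4 had the lowest interaction, -0.12 ± 0.11.

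**Figure D5:**
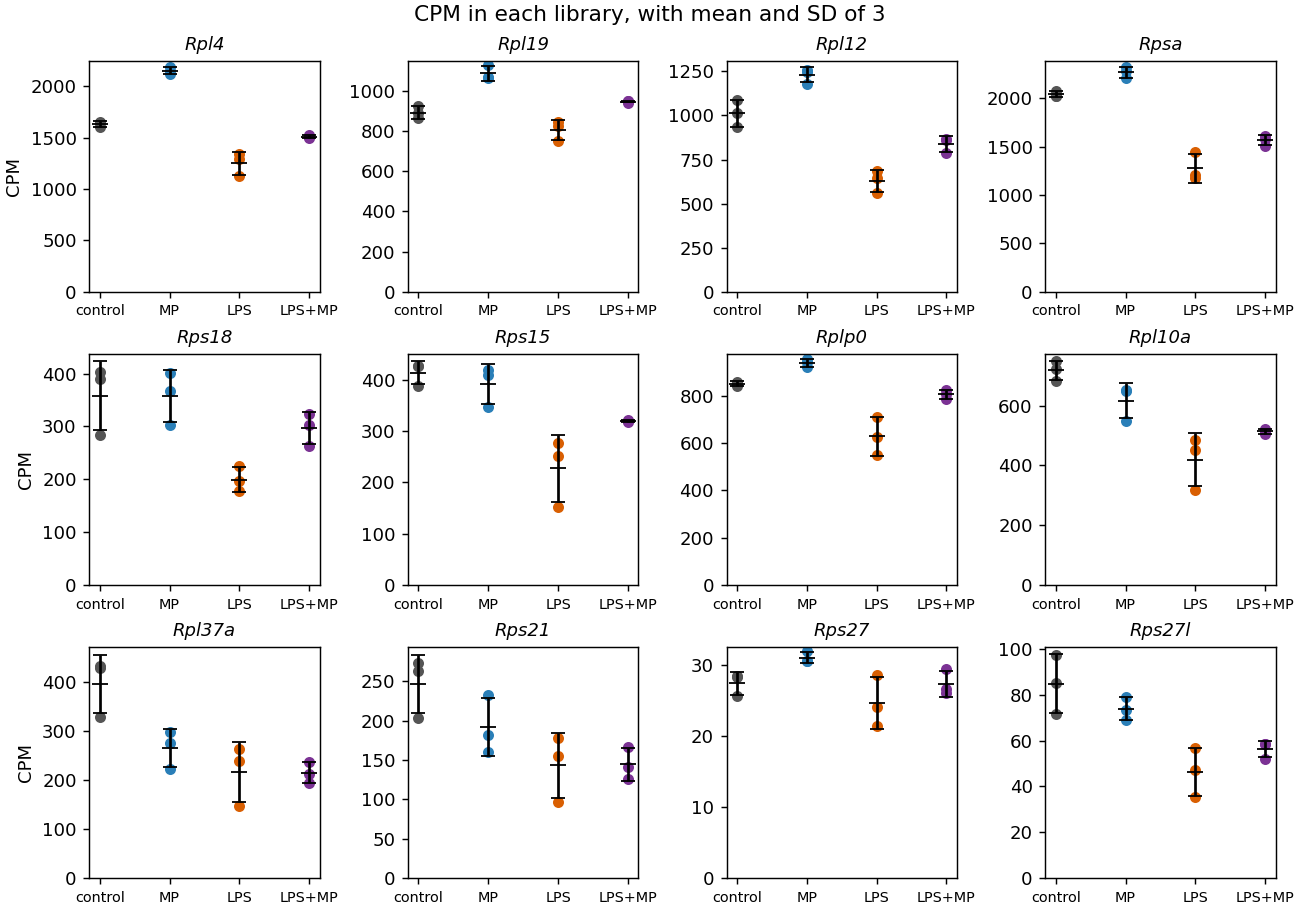
CPM of 12 ribosomal protein genes in each library (points) with the mean and SD of 3 libraries, every axis starting at 0. Rps18, Rps15 and Rplp0 are low with LPS and higher with LPS+MP, Rpl4 and Rpl19 are highest with MP, and the libraries of Rpl37a lie below control in all 3 treated groups.

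Per kilobase of transcript, Rplp1, Rpl8, Rpl32, Rpsa and Rpl19 had the highest levels in control, at 1540, 1410, 1344, 1279 and 1187 CPM per kilobase. The lowest were Rpl3l at 1.10, Rps27 at 79.3 and Rps20 at 83.4 CPM per kilobase, and 73 of the 77 genes were above 100 CPM before division by length. Rps20 has an annotated transcript of 3706 bases with a coding part of 357 bases, which lowers its value on this scale. LPS lowered the per-kilobase level of Rpl8 to 901.6 and of Rpl32 to 825.1, and that of Rplp1 was 1412.

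Several ribosomal proteins have a close paralog. Rps27 was at 25.51, 28.19 and 28.37 CPM in control and at 24.01, 21.3 and 28.55 CPM with LPS, a change of -0.15 ± 0.10 that did not pass. Rps27l, its paralog, fell from 97.62, 71.85 and 85.27 CPM to 47.07, 35.44 and 56.7 CPM (-0.87 ± 0.14, limma adjusted p = 6.22e-05), and whether the 2 changes differ was not tested. Of the 50-base windows of Rps27, 98.6% also occur in another annotated gene, against 22.4% for Rps27l, and how reads shared between genes were counted is not given in the sources used here. Gm9846, annotated as the Rps27 retrogene Rps27rt, was at 240.7, 139.6 and 253.8 CPM in control and at 139.7, 131.9 and 151.4 CPM with LPS.

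Rpl3l, the paralog of Rpl3 used in heart and skeletal muscle, was near the filter of 1 CPM, from 0.62 to 2.09 CPM over the 12 libraries, and passed in no comparison. Rpl22 fell with LPS by 0.40 ± 0.08 on the log2 scale and its paralog Rpl22l1 changed by -0.13 ± 0.15. Rpl7 (-0.38 ± 0.07) and Rpl7l1 (-0.42 ± 0.07) both fell, and Rpl36a (-0.30 ± 0.14) and Rpl36al (-0.01 ± 0.10) did not pass.

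Such sharing of sequence was common. A median of 57.4% of a gene's 50-base windows, and from 0% to 98.6%, occurred in another annotated gene, and 49 of 77 genes had over 50%. For most members these other genes were mostly pseudogenes, but not for Rps16 (6 of 94), Rpl23 (4 of 72) and Rps20 (4 of 51). Entries of the table named as ribosomal protein pseudogenes numbered 9 and held 720.6 to 1535 CPM per library. Spearman's rho across the 77 genes between the shared percentage and the change was 0.12 with MP, 0.13 with LPS and -0.03 with LPS+MP against LPS.

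The gene at the true Rpl24 position, spelled RPL24 in the table and so outside the name pattern, was at 250.3, 221 and 238.9 CPM in control, 270.8, 303.1 and 313.6 CPM with MP, 211.4, 183.2 and 232.1 CPM with LPS and 270.8, 278.1 and 260.6 CPM with LPS+MP. It rose with MP (0.32 ± 0.09, limma adjusted p = 0.0090) and with LPS+MP against LPS (0.37 ± 0.09, limma adjusted p = 0.00375), and its change with LPS was -0.18 ± 0.09 (limma adjusted p = 0.077). The entry named Rpl24 at chr16:55973883-56008913, which is Zbtb11, changed the other way with LPS, by 0.34 ± 0.13, a call lost with 4 of the libraries left out (adjusted p = 0.054 to 0.17).

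Ribosomal protein genes named in another form gave 8 tested genes, and with LPS 6 of these 8 fell and 0 rose (background 35.6% and 26.6%). Rps3a1 changed by -0.52 ± 0.07, Gnb2l1, which encodes the ribosome-bound scaffold Rack1, by -0.50 ± 0.08, and Fau, made as a fusion with a ubiquitin-like protein, by -0.45 ± 0.14 (limma adjusted p = 5.73e-06, 9.76e-05 and 0.013). The change of Fau was -0.21 without LPS replicate 2, and its call was lost when the 2 groups were fitted alone (0.055). With LPS+MP against LPS, 2 of 8 rose and 0 fell, where 13% of all genes rose and 22.2% fell. Gnb2l1 was among those that rose and changed by 0.35 ± 0.08 (limma adjusted p = 0.0046).

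Other parts of the translation machinery were described by lists. With LPS 35.6% of all genes fell and 26.6% rose, with a median of -0.08 over all genes. Of 12 genes listed as elongation and release factors, 7 fell and 1 rose with LPS, with a median of -0.32. Eef2, the translocase, changed by -0.59 ± 0.09 and Eef1d by -0.46 ± 0.07. Of 35 initiation factors, 12 fell and 5 rose with LPS, with a median of -0.12, so the share that fell was near that of all genes. Eif4b, a cofactor of the helicase Eif4a, changed by -1.05 ± 0.06 and Eif4a1, the helicase itself, by -0.64 ± 0.07 (limma adjusted p = 8.48e-10 and 1.91e-06). With LPS+MP against LPS, 12 of the 35 rose and 0 fell, where 13% of all genes rose and 22.2% fell. Among those that rose were Eif3d (0.45 ± 0.07) and Eif6, which keeps the subunits apart during assembly (0.67 ± 0.11).

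Ribosome assembly factors numbered 58, and with LPS 26 fell and 6 rose (35.6% and 26.6% of all genes), with a median of -0.15. The box H/ACA proteins Gar1 (-0.98 ± 0.11) and Nop10 (-1.07 ± 0.16) were among those that fell. With MP alone 26 of the 58 rose and 2 fell, with a median of 0.22, where 20.6% of all genes rose and 18.3% fell. Pno1, an assembly factor of the small subunit, changed by 0.83 ± 0.09 and Gnl2, of the large subunit, by 0.58 ± 0.07 (limma adjusted p = 2.74e-06 and 1.72e-05). Initiation factors also had 14 of 35 genes higher and 2 lower with MP, among them Eif3c (0.79 ± 0.07) and Eif2b3 (0.94 ± 0.12). The list of elongation and release factors had 5 of 12 higher and 0 lower. Those 5 include Eef1e1 (0.79 ± 0.09), which was listed by its name and is not itself an elongation or release factor. The 77 ribosomal protein genes had 6 higher and 2 lower in the same comparison, with a median of 0.03. Against MP, cells with LPS+MP had 36 of the 58 assembly factors lower and 0 higher (36.6% and 19% of all genes), with a median of -0.31 beside -0.14 over all genes, among them Nop56 (-0.79 ± 0.08) and Rrp1b (-0.82 ± 0.08).

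Of 15 genes of RNA polymerase I, which transcribes ribosomal RNA, and its factors, 3 fell and 1 rose with LPS, both smaller shares than the 35.6% and 26.6% of all genes. Ubtf, which binds the ribosomal RNA promoter, changed by -1.04 ± 0.08 (limma adjusted p = 1.23e-08). Tcof1, a nucleolar cofactor of that polymerase, was lower with LPS+MP than with MP (-0.77 ± 0.07). Of 30 genes of mTORC1 and the control of ribosomal protein mRNA, 12 fell and 5 rose with LPS, and the share that fell was near that of all genes. Rptor, the subunit that binds substrates, changed by -0.78 ± 0.07 and Deptor, an inhibitor of the kinase, by -1.26 ± 0.13, and Deptor was lower still with LPS+MP against LPS (-1.63 ± 0.13, limma adjusted p = 1.81e-07).

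Of 9 tested genes of the MYC network, 4 fell and 2 rose with LPS, where 35.6% and 26.6% of all genes did. Mxd1, a repressor that competes with Myc for its partner Max, changed by 2.65 ± 0.11 and Mxd3 by -2.14 ± 0.19 (limma adjusted p = 1.04e-11 and 1.14e-07). With MP, Myc itself changed by -1.26 ± 0.16 (limma adjusted p = 1.88e-05), and the list had 5 lower and 2 higher, where 18.3% of all genes were lower and 20.6% higher. Of 10 tested snoRNA host genes, several of which carry TOP motifs, 3 fell and 0 rose with LPS, a share that fell near that of all genes, among them Snhg5 (-1.06 ± 0.17). Of 17 genes of ribosome quality control, 4 fell and 5 rose, a smaller share of falls than over all genes and a like share of rises, among them G3bp1 (-0.89 ± 0.06) and Ascc3 (1.05 ± 0.14).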

How the data were processed

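The 12 libraries were assigned to groups and replicate numbers by their labels. Polyadenylated RNA went into directional libraries amplified over 16 PCR cycles, per the labels' protocols. Software named without a role in the submitters' processing notes comprised TopHat2 2.1.1, Trimmomatic 0.36, FastQC 11.5, edgeR, HTSeq and DESeq2. Build, counting rules and depth are not given there. The deposited columns are headed RPKM but were read as CPM: each library sums to between 998867 and 999273, and the log2 column logCPM, named so per the file headers and taken as the authors' mean over libraries, follows these values without division by length. Whole reads were found in 2 of the 12 libraries, in steps of 0.0247 CPM, and not in the other 10 (share whole at most 0.91, counting values under 0.6 CPM within 0.05 of a step as whole), so no count test was run. Coordinates overlapped the same gene in GENCODE M21 (GRCm38) for 11666 of 11671 matched genes.

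Genes with at least 1 CPM in at least 3 libraries (11745 of 11762) were tested on log2(CPM + 1) with limma 3.58.1 in R 4.3.3, as 4 group means with a variance trend and Benjamini-Hochberg adjustment over all genes. Fold changes are on that scale. A call is an adjusted p under 0.05. The second rule adds a change over 2-fold. Errors of fold changes are SE, other errors SD. The precision is limited by 3 libraries a group: in simulated data, 1.5-fold changes were recovered for 64% (LPS+MP against LPS) to 72% (LPS against control) of 50 genes and for 38% in the interaction, and 1.2-fold changes for 10% to 20% and 4%. Few genes were changed there (50 at each size), whereas in the data 35.6% of all genes fell and 26.6% rose with LPS. The Benjamini-Hochberg adjustment depends on that share, so these percentages need not hold for the data.

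Members, lists and tests were chosen with earlier results of these data known. For each comparison the 5 highest and 5 lowest members, the paralog pairs and the 5 most and least abundant members were to be named, and of each other list up to 4 called genes with the smallest adjusted p. Some genes that this rule names are not reported here. Members named for their role (Rpl5, Rpl11, Rps6, Rps19, Rps27a, the stalk genes, Rps18, Rpl10a) were chosen after their values were seen. Setting the entry named Rpl24 apart, the coding length classes and the transcript choice (the principal transcript with a consensus coding sequence, the third definition tried) were also set after seeing the data. Alternatives were another pseudocount, other filters, quantile and median-ratio scaling, no variance trend, the compared groups alone, a replicate block and each library left out. Promoters are from RefSeq. Replicate numbers were not used to pair the libraries in the main fit.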

Additional observations from a re-analysis of the deposited data

Results flagged for a closer look

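The effect of MP on Rps18 differed between cells with and without LPS by 0.57 on the log2 scale (limma adjusted p = 0.045): it was 0.00 without LPS and 0.57 with it. The same difference for Rpl10a was 0.54 (limma adjusted p = 0.035), from -0.22 without LPS to 0.32 with it. Each call was lost with 7 of the 12 libraries left out in turn.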

How the results depend on the processing

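Under every alternative run, the median change of the ribosomal protein genes with LPS stayed below 0 and at least 62 of them fell. The values below are those that moved, and the cause was not tested. After quantile normalization 11 genes rose with MP against control, 22 rose with LPS+MP against LPS and 0 passed in the interaction. After median-ratio scaling, which moved the median of all genes in LPS+MP against control and against MP by over 0.1 to near 0, LPS+MP against control had 1 gene higher, 21 lower and a median of -0.1493, LPS+MP against MP had 18 lower and a median of -0.1306, the interaction had 16 higher, and the summed shares were 4.158% with MP and 3.698% with LPS+MP. With mitochondrially encoded genes left out of the sum the shares were 4.477% in control, 4.754% with MP and 3.694% with LPS+MP. Without the variance trend 0 genes passed in the interaction. With the compared groups fitted alone 17 genes rose and 9 fell with MP against control and 12 rose with LPS+MP against LPS. With all 78 entries of the name pattern, an alternative chosen after seeing the data, 1 entry (that of Zbtb11) was higher with LPS and 1 with LPS+MP against control. With the replicate block 5 genes passed as higher in the interaction, Rps15 among them (adjusted p = 0.045), and Rpl38 passed with LPS (0.027) and Rps20 and Rpl10a with LPS+MP against LPS (0.036 and 0.046). Libraries of the same number were not treated as paired in the main fit. Over 18 pairs of groups and numbers the median correlation of deviations was 0.018 (-0.247 to 0.158). For 7 of the 12 libraries the best match had the same number, so this check does not settle whether they were paired.

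With each library left out in turn, MP against control had 2 to 14 genes higher and 0 to 10 lower. LPS against control had a median of -0.6197 to -0.4375 and 0 to 4 genes lower by over 2-fold. LPS+MP against control had 24 to 54 genes lower, 0 to 1 of them by over 2-fold. LPS+MP against LPS had 18 to 55 genes higher and 0 to 1 lower, Rpl36a without LPS replicate 1 and Rpl3l without LPS replicate 2. The interaction had 0 to 26 genes higher. Read depth is not given, and whole reads were found in 2 of the 12 libraries only, so counting error was not set against these ranges.

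Log2 fold changes that changed sign passed the threshold neither as reported nor where the sign changed; values are given after quantile normalization, after median-ratio scaling or as the range with 1 library left out. In MP against control these were Rps18 -0.03508 (median ratio) and -0.1594 to 0.1146 (left out). In LPS against control these were Rpl3l -0.06036 (quantile) and -0.08332 to 0.2492 (left out), Rpl36al 0.06679 (median ratio) and -0.1509 to 0.09181 (left out), Rpl22l1 -0.3158 to 0.03665 (left out). In LPS+MP against control these were Rps27 0.1608 (quantile) and 0.1034 (median ratio) and -0.05558 to 0.03167 (left out), Rpl19 -0.04959 (quantile), Rpl18 0.09815 (median ratio) and -0.03173 to 0.01516 (left out), Rps24 0.1046 (median ratio) and -0.04052 to 0.04067 (left out), Rps23 0.1061 (median ratio) and -0.1077 to 0.05549 (left out). In LPS+MP against LPS these were Rpl3 -0.02333 to 0.1306 (left out), Rpl36a -0.378 to 0.058 (left out), Rpl37a -0.2321 to 0.1849 (left out), Rpl39 -0.03422 to 0.1258 (left out), Rps21 -0.208 to 0.2246 (left out). In LPS+MP against MP these were Rps29 0.03872 (quantile) and 0.1309 (median ratio) and -0.2142 to 0.1355 (left out), Rps20 0.1127 (median ratio) and -0.1373 to 0.02898 (left out), Rplp2 0.1367 (median ratio) and -0.1282 to 0.06413 (left out), Rpl38 -0.1225 to 0.2076 (left out), Rpl3l -0.07596 to 0.1115 (left out). In the interaction of LPS and MP these were Rpl3l 0.1068 (quantile) and -0.2422 to 0.09035 (left out), Rpl12 -0.1201 (quantile), Rpl26 0.001076 (median ratio), Rpl19 0.01841 (median ratio), Rpl36a -0.28 to 0.156 (left out).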
